A study of Apostichopus japonicus with 3 samples.

Results

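Body wall transcripts of the sea cucumber Apostichopus japonicus were compared between animals held without light for 2 h, in a tank under a shade cloth (dark), and animals left in natural light of about 100 lux (control). Each condition is 1 library, and a further library, from animals given strong light of about 2000 lux for 2 h (light), is set beside them only for its levels. The labels give no age, sex or number of animals behind a library. The assembled transcripts, called isotigs, were joined into orthologies, that is, all isotigs sharing the first KEGG Orthology identifier of their best database hit, and the unique reads of those isotigs were summed. Orthologies with at least 50 reads over the dark and control libraries are described. These were 2185 of the 3418 orthologies with a read in any library, and they hold 5672 of the 21290 isotigs. No member was at 0 in either library.

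Sea cucumbers are echinoderms. Their body wall is a thin epidermis over a thick dermis of collagen fibrils, proteoglycans and wandering coelomocytes (the phagocytic and secretory cells of the body cavity), with nerves and muscle bands beneath. Apostichopus japonicus is known to shelter from bright light and to feed mostly in dim light, and the skin of echinoderms senses light without eyes. In animal cells in general, ribosomal protein genes are expressed together because ribosomes need each subunit protein in equal number. Transcripts of growth factor signalling, of adhesion and of cell shape come from many genes at low levels and often have long messages.

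The dark library held 1698268 uniquely assigned reads, control 1570290 and light 1644816, over 18948, 19435 and 19664 listed isotigs. Body wall is the tissue given by title, protocol and tissue label, but the source label names the intestine for all 3 libraries. Dermis markers summed to 24435 RPKM (reads scaled to isotig length and library total) in the dark library and 26432 RPKM in control, and fibrillar collagen alone, listed as collagen, type I/II/III/V/XI, alpha, had 33363 reads in the dark library and 32586 in control. Digestive markers summed to 2585 RPKM in the dark library and 3338 in control, and of the 12 detected ones 2 were at 0 in the dark library and 1 in control. Coelomocyte markers stood at 11638 RPKM in the dark library against 9879 in control, nearly all of it from mannose receptor, C type (11260 against 9053). Complement component 3 (315 against 682), macrophage scavenger receptor 1 (20.8 against 95.2) and toll-like receptor 2 (22.9 against 33.7) were lower in the dark library. The remaining coelomocyte marker, toll-like receptor 3, was higher there, on 36 reads against 29 in control. Muscle markers stood at 2064 against 2766, and neuronal markers at 402 against 868 RPKM, with 3 of 17 detected neuronal markers at 0 in the dark library and 2 of 17 in control. In bulk tissue, fewer cells of a type and less RNA per cell cannot be told apart, and with 1 library per condition a difference between animals, dissections or libraries cannot be told apart from one of lighting. The part that cell makeup plays in any value below was not tested.

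The dark library had relatively more reads from ribosomal proteins, the respiratory chain, ATP synthase and protein entry into the endoplasmic reticulum. It had relatively fewer from protein kinases, matrix proteases, and integrins and cadherins with their linkers. Other parts of protein and energy making, such as aminoacyl-tRNA synthetases and glycolysis with the citrate cycle, were not higher as lists. After scaling by median-of-ratios size factors over the isotigs read in both libraries, 73 orthologies (3.34%) were at least 2-fold higher in the dark library and 232 (10.6%) at least 2-fold lower, while 1880 lay within 2-fold. For each of these 305 orthologies the exact 95% interval from counting error excluded equality. The read minimum and the 2-fold limit together fixed that outcome in advance, so it is no support for the calls. Of the 73 higher orthologies, 34 were cytosolic ribosomal proteins, of 75 described, and 14 belonged to the respiratory chain or ATP synthase, of 59 described. The other 25 came from scattered families. With 1 library per condition there is no test between conditions, so every ratio below compares 2 libraries and its interval covers counting error only.

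The scaling sets how many orthologies fall on each side. The median log2 ratio of dark over control was -0.23 over all members, with quartiles of -0.66 and 0.21 and an SD of 0.65. The light library set against the same control gave an SD of 0.30 over the same orthologies, with 2 at least 2-fold higher and 10 lower. Scaled to the library totals, 5 orthologies (0.229%) were at least 2-fold higher in the dark library, 491 (22.5%) were at least 2-fold lower, and the median was -0.51. Size factors over the orthology sums instead of single isotigs brought the median to 0.02, with 170 higher and 115 lower. All 73 higher orthologies stayed above 0 and all 232 lower ones below 0 under each of the 5 scalings tried. That outcome was fixed in advance and is no support. A scaling shifts all log2 ratios by about the same amount, here too little for members past 2-fold to cross 0. Values of gene lists are therefore read against the median of all members rather than against 0. Counts past 2-fold within a list are read against the 3.34% higher and 10.6% lower of all members.

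**Figure D1:**
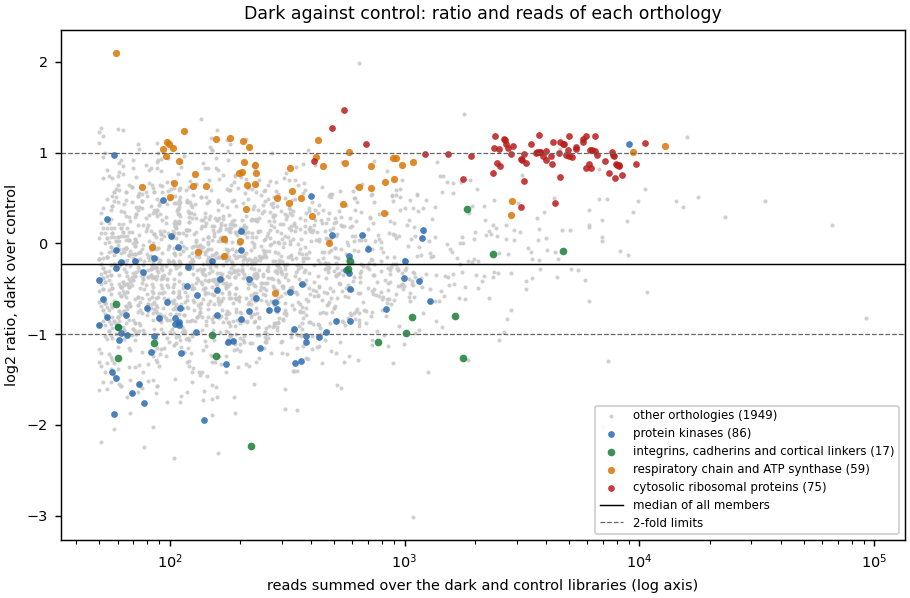
Log2 ratio of dark over control (vertical axis) against the reads summed over the dark and control libraries (horizontal log axis) for each of the 2185 orthologies, 1 point each. The 75 ribosomal proteins form a tight band near a log2 ratio of 1 at high read numbers, the 59 respiratory and ATP synthase subunits lie mostly above the median of -0.23, and most of the 86 protein kinases lie below it.

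Proteins of the cytosolic ribosome, the particle that translates messenger RNA, had ratios close to each other. All 45 large-subunit and all 30 small-subunit proteins lay above the median of all members. The large-subunit list had a median log2 ratio of 0.98 (quartiles 0.87 and 1.09), with 21 members at least 2-fold higher and none lower. The small-subunit list also had a median of 0.98 (quartiles 0.90 and 1.04), with 13 higher and none lower. Both medians lay 1.21 above that of all members. Together the ribosomal proteins took 12.8% of the reads in the dark library, 8.02% in control and 7.84% in the light library.

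Large subunit ribosomal protein L13e, the one with the most reads, had 6938 reads in the dark library, 3630 in control and 3857 in the light library. The dark library stood alone above control and light. Its ratio was 2.15-fold (counting interval 2.07 to 2.24). L15e had 4346 reads in the dark library and 2149 in control (2.28-fold, 2.16 to 2.40), and S15Ae had 3349 against 1656 (2.28-fold, 2.14 to 2.41). The highest ratio within the ribosome was that of L23Ae, at 392 reads in the dark library and 159 in control, 2.77-fold (2.30 to 3.36). Other abundant members had smaller ratios than L13e: L6e had 5991 against 3688 reads (1.83-fold), S3e had 4940 against 3056 (1.82-fold) and S4e had 5056 against 3372 (1.69-fold). Across the list the log2 ratio ran from 0.40 to 1.47 in the large subunit and from 0.71 to 1.19 in the small one.

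Respiratory subunits, which carry electrons to oxygen in mitochondria and pump protons, were also relatively higher in the dark library. Complex I (NADH dehydrogenase) had 26 members with a median of 0.72, with 5 at least 2-fold higher, none lower, and all 26 above the median of all members. The list of complexes II to IV with cytochrome c had 20 members with a median of 0.87, 4 higher, none lower, and 19 above that median. ATP synthase, which turns the proton gradient into ATP, had 13 members with a median of 0.71, 5 higher, none lower, and all 13 above it. Reads of the respiratory and ATP synthase orthologies made up 1.68% of the dark library, 1.16% of control and 1.19% of the light library.

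Cytochrome c oxidase subunit 1, the catalytic core of complex IV and encoded in the mitochondrial genome of animals, had 8352 reads in the dark library, 4456 in control and 4443 in the light library. Control and light were alike, and the dark library was 2.11-fold above control (2.03 to 2.19). F-type H+-transporting ATPase subunit a, also mitochondrially encoded in animals, had 5996 reads in the dark library against 3371 in control and 3379 in the light library, 2.00-fold (1.92 to 2.09), which puts it on the 2-fold limit. Nuclear-encoded subunits lay on both sides of that limit. Ubiquinol-cytochrome c reductase subunit 8 had 282 reads in the dark library and 144 in control (2.20-fold, 1.80 to 2.71), and NADH dehydrogenase (ubiquinone) Fe-S protein 4 had 136 against 70 (2.19-fold, 1.63 to 2.96).

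Some large catalytic subunits had smaller ratios. F-type H+-transporting ATPase subunit beta, which makes ATP, had 1484 reads in the dark library and 1348 in control, a log2 ratio of 0.31, and F-type H+-transporting ATPase subunit alpha had 0.47 with 1575 against 1279. NADH dehydrogenase (ubiquinone) Fe-S protein 1, the largest subunit of complex I, had 0.34 with 434 against 386. The highest ratio in ATP synthase, 4.41-fold for F-type H+-transporting ATPase subunit 6, rested on 47 reads in the dark library and 12 in control and has a wide interval (2.30 to 9.13). Succinate dehydrogenase (ubiquinone) membrane anchor subunit was the one member of these lists below the median of all members, at a log2 ratio of -0.54 with 106 against 174 reads; it belongs to complex II, the complex that pumps no protons.

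**Figure D2:**
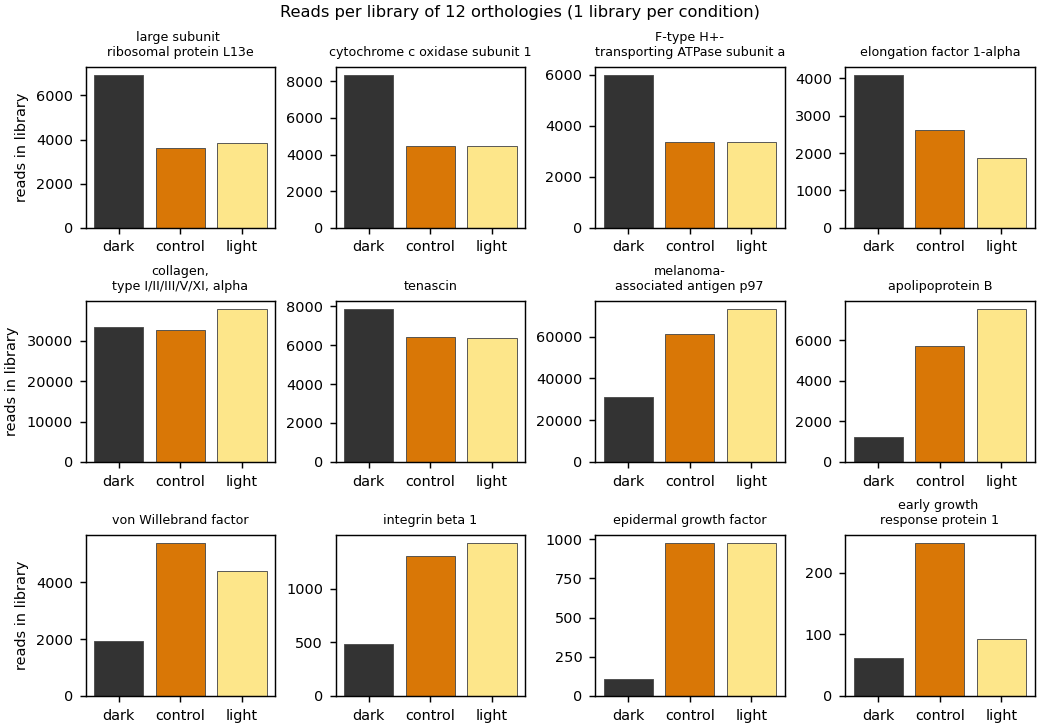
Unique reads per library, not scaled for depth, of 12 orthologies in the dark, control and light libraries (1 bar per library, vertical axes from 0 and different in each panel). The dark bar is the tallest for L13e, cytochrome c oxidase subunit 1, ATPase subunit a and elongation factor 1-alpha, and the lowest for melanoma-associated antigen p97, apolipoprotein B, von Willebrand factor, integrin beta 1, epidermal growth factor and early growth response protein 1.

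Entry of new proteins into the endoplasmic reticulum (ER), where secreted and membrane proteins are made, was the next highest list. Its 21 members had a median of 0.51, which is 0.74 above all members, and 19 lay above the median of all members, but none was at least 2-fold apart in either direction. The translocon-associated protein subunit delta had 853 reads in the dark library and 517 in control (log2 ratio 0.89), and protein transport protein SEC61 subunit beta, part of the channel itself, had 344 against 259 (0.58). At the low end, signal peptidase, endoplasmic reticulum-type, which trims the signal sequence, had 41 against 70 reads (-0.60), and signal recognition particle subunit SRP72 had 67 against 90 (-0.25).

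The 10 translation elongation and release factors had a median of 0.17, whose sign depends on the scaling. Of the 10, 6 lay above the median of all members and 4 below it. None was at least 2-fold higher and 1 was lower, close to the 10.6% of all members. Elongation factor 1-alpha, which brings charged tRNA to the ribosome, had 4092 reads in the dark library, 2608 in control and 1874 in the light library. That is 1.77-fold above control (1.68 to 1.85), with the light library the lowest of the 3. Elongation factor 2, which moves the ribosome along, had 887 reads in the dark library and 623 in control (1.60-fold, 1.44 to 1.78). Elongation factor 1-beta, 1-delta and 1-gamma had log2 ratios of 0.91, 0.70 and 0.53. Peptide chain release factor subunit 1, which ends translation, had 18 reads in the dark library and 53 in control, 2.62-fold lower (1.51 to 4.75), and elongation factor 2 kinase, which in mammals slows elongation, had 35 against 70 (-0.82). The 23 initiation factors had a median of 0.08 with none past 2-fold. Their extremes were translation initiation factor 6 at 0.99 (34 against 19 reads) and translation initiation factor 4B at -0.72 (51 against 95 reads).

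Aminoacyl-tRNA synthetases, which charge tRNAs with amino acids, did not share the ribosomal pattern. Their 16 members had a median of -0.39, with 1 higher and 1 lower. Bifunctional glutamyl/prolyl-tRNA synthetase had 104 reads in the dark library and 284 in control, 2.43-fold lower (1.93 to 3.07). Phenylalanyl-tRNA synthetase beta chain had 118 against 62, 2.14-fold higher (1.56 to 2.96). The vacuolar proton pump, another rotary ATPase, had 11 members with a median of -0.04, and glycolysis with the citrate cycle had 18 with a median of -0.17, each with at most 1 member past 2-fold on a side.

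**Figure D3:**
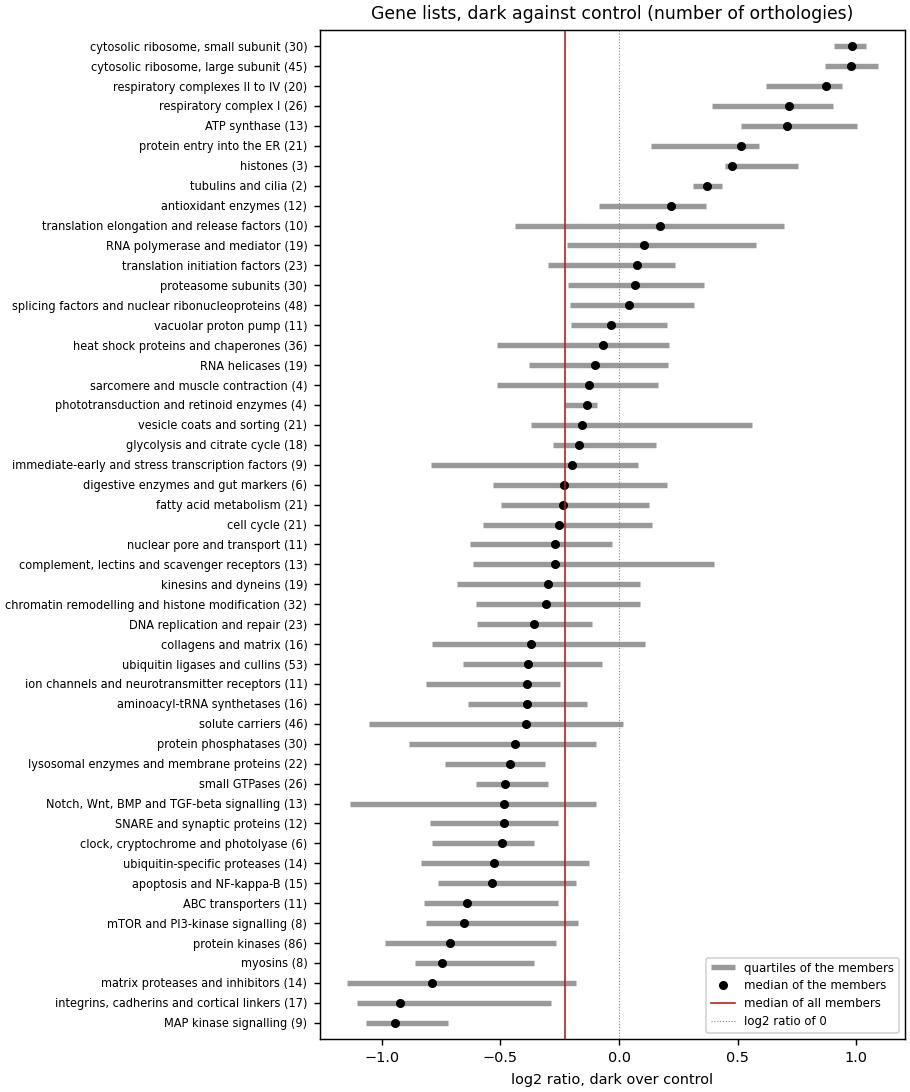
Median (point) and quartiles (bar) of the log2 ratio of dark over control in each of 50 gene lists, ordered by median, with the number of orthologies in each list in parentheses. The red line is the median of all 2185 orthologies, -0.23; ribosomal and respiratory lists lie furthest above it, and MAP kinase signalling and integrins with cadherins furthest below.

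Outside the ribosome and mitochondria, the orthologies at least 2-fold higher in the dark library were few and mostly of low read number. Histone H1/5, the linker histone that compacts chromatin, had 2968 reads in the dark library, 1626 in control and 1675 in the light library (2.05-fold, 1.93 to 2.18). Histone H2A (1324 against 1072 reads, log2 ratio 0.47) and histone H3 (1053 against 888, 0.42), of the nucleosome core, had smaller ratios. Libraries were made from RNA selected on oligo(dT), and metazoan core histone messages mostly lack a poly(A) tail, so these levels are those of the part captured. 20S proteasome subunit beta 6 was the only one of 30 proteasome subunits past 2-fold, with 108 reads in the dark library and 51 in control (2.38-fold, 1.69 to 3.39). The 30 subunits had a median of 0.07. Mediator of RNA polymerase II transcription subunit 19 (100 against 50 reads) and mediator of RNA polymerase II transcription subunit 10 (98 against 54), parts of the bridge between activators and RNA polymerase, were at least 2-fold higher, while mediator of RNA polymerase II transcription subunit 14 (32 against 80) was 2.22-fold lower. Bone morphogenetic protein 2/4, a secreted growth factor, had 48 reads in the dark library, 26 in control and 16 in the light library (2.08-fold, 1.26 to 3.49).

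Outside the ribosome and ATP synthase, the orthologies highest by interval were each carried by 1 or 2 isotigs, and some of their names are less certain than their counts. The orthology named Notch, after a receptor that controls cell fate between neighbouring cells, had 10640 reads in the dark library, 5298 in control and 6135 in the light library (2.26-fold, 2.19 to 2.34). Of these, 8201 and 3291 reads came from isotig05245 (log2 ratio 1.49), whose hit to Notch had an E-value of 2e-07, a weak match. The Notch isotigs with the strongest hits were near equality: isotig13293 (E-value 8e-94) had 161 reads in the dark library and 165 in control, and isotig14256 (3e-76) had 214 and 245. Using hits with an E-value of at most 1e-10 alone turned the Notch sum round, to a log2 ratio of -0.28. That limit also turned round the sums of chondroitin sulfate proteoglycan 3 (neurocan), to -0.63, and of K06942, an orthology without a definition in the tables, to -0.27.

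With all isotigs, chondroitin sulfate proteoglycan 3 (neurocan) had 497 reads in the dark library and 141 in control (3.97-fold, 3.28 to 4.82), of which 440 and 107 came from isotig10750 (E-value 7e-09). K06942 had 1265 against 528 reads (2.70-fold, 2.43 to 2.99), of which 999 and 338 came from isotig03695 (2e-07). Tyrosine kinase receptor 1 had 5933 reads in the dark library against 3127 in control (2.13-fold, 2.04 to 2.23). It rested on isotig25664 (4423 against 2142 reads, E-value 1e-21) and isotig15859 (1232 against 473, 3e-27). The isotig of this name with the strongest hit, isotig13567 (1e-124), was not higher, with 137 against 187 reads (log2 ratio -0.28). A weaker hit, isotig20753 (8e-08), had 19 against 104 reads.

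**Figure D4:**
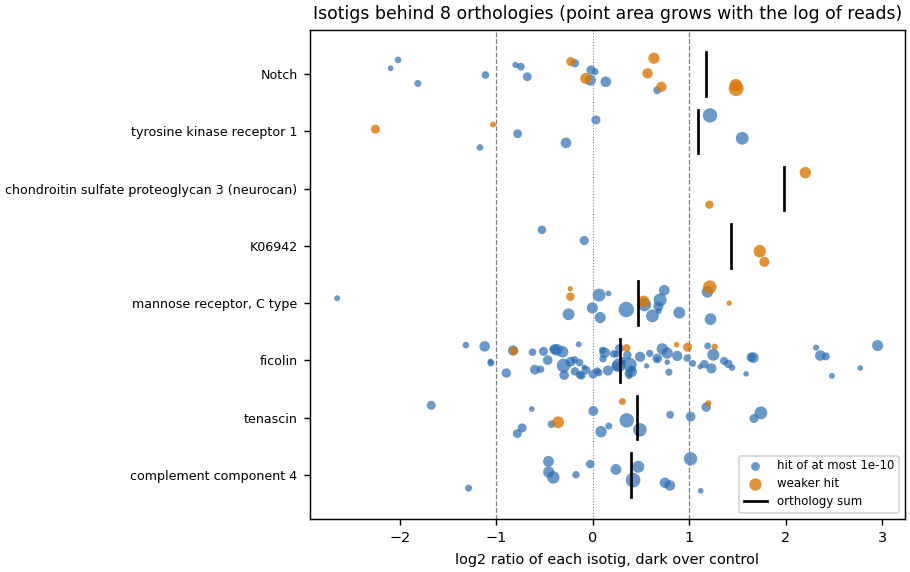
Log2 ratio of dark over control for each isotig with at least 20 reads behind 8 orthologies, 1 point per isotig, with blue for database hits of at most 1e-10 and orange for weaker hits; the black bar is the ratio of the orthology sum. In Notch, neurocan and K06942 the sum lies beside orange points, and in ficolin single isotigs reach from -1.32 to 2.95 around a sum of 0.29.

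Protein kinases were the largest list and lay low as a whole. Their 86 members had a median of -0.71, which is 0.49 below all members, and 65 lay below the median of all members. Of the 86, 21 were at least 2-fold lower, beside 10.6% of all members, and 1 was higher, beside 3.34%. Tyrosine kinase, non-receptor, 2 had 26 reads in the dark library and 114 in control, 3.90-fold lower (2.53 to 6.22). TANK-binding kinase 1, an innate immune kinase in vertebrates, had 16 against 62 (3.44-fold lower, 1.96 to 6.39). Beta-adrenergic-receptor kinase, which switches off active G protein-coupled receptors, had 89 against 251 (2.51-fold lower, 1.96 to 3.23).

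The MAP kinase list, a relay that passes growth and stress signals from the membrane to the nucleus, had 9 members. All of them lay below the median of all members and 4 were at least 2-fold lower, beside 10.6% of all members. Mitogen-activated protein kinase kinase 3 had 14 reads in the dark library, 45 in control and 48 in the light library, 2.86-fold lower (1.54 to 5.64). Mitogen-activated protein kinase kinase 4, with more reads, had 107 against 232 (1.93-fold lower, 1.53 to 2.45), and the MAP kinase interacting serine/threonine kinase, which acts on a translation initiation factor, had 466 against 814 (1.55-fold lower, 1.38 to 1.74). Control and light were alike in each.

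Among the lowest orthologies by interval were 2 enzymes that act on membrane phosphoinositides. Phosphatidylinositol phospholipase C, gamma-1, which releases calcium signals downstream of receptor tyrosine kinases, had 24 reads in the dark library, 136 in control and 154 in the light library, 5.04-fold lower (3.25 to 8.13). Phosphatidylinositol-4,5-bisphosphate 3-kinase, which makes the lipid that recruits growth kinases, had 119, 397 and 425 reads in the same order, 2.97-fold lower (2.41 to 3.67). The dark library stood apart in each case and the other libraries lay together. The 8 members of the mTOR and PI3-kinase list had a median of -0.65, with 5 below the median of all members and 3 above it. Of the 8, 1 was at least 2-fold lower, close to the 10.6% of all members. RAC serine/threonine-protein kinase (Akt) was at -0.54 with 123 against 201 reads. The 30 protein phosphatases, which remove the phosphate that kinases add, had a median of -0.44. Of the 30, 7 were at least 2-fold lower, beside 10.6% of all members, and none was higher. Protein tyrosin phosphatase, non-receptor type 13, spelled so in the tables, had 12 reads in the dark library, 66 in control and 124 in the light library.

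Small GTPases are switches for actin, cell shape and vesicle traffic. The 26 orthologies on this list had a median of -0.48, with 4 at least 2-fold lower, beside 10.6% of all members. Ras-related protein Ral-A had 43 against 130 reads (2.69-fold lower, 1.89 to 3.89), while ADP-ribosylation factor 1, with 1291 against 1406 reads, was at 0.05.

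Integrins, heterodimers that hold cells to the matrix, and cadherins, which join cells, formed with their cortical linker proteins a list of 17. Its median was -0.92. Of the 17, 7 were at least 2-fold lower, beside 10.6% of all members, and none was higher. Integrin beta 1, the shared partner of many alpha chains, had 482 reads in the dark library, 1299 in control and 1425 in the light library, 2.40-fold lower (2.16 to 2.67). Integrin alpha 8 had 226 against 541 reads (2.13-fold lower, 1.82 to 2.50), and integrin alpha 4, integrin alpha 6 and integrin alpha 9 had log2 ratios of -1.26, -1.24 and -1.10. Cadherin EGF LAG seven-pass G-type receptor 2 (flamingo), which aligns cells within a sheet in flies and vertebrates, had 35, 187 and 304 reads in dark, control and light, 4.75-fold lower in the dark library than in control (3.30 to 7.02). Linkers under the membrane ran from plectin at -1.01, dystonin at -0.98 and talin at -0.81 to filamin at -0.12, spectrin beta at -0.08 and spectrin alpha at 0.38 (990 against 856 reads).

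Collagens and other matrix proteins had a median of -0.37 over 16 members, with 1 at least 2-fold higher and 1 lower. Fibrillar collagen (collagen, type I/II/III/V/XI, alpha) had a log2 ratio of 0.20 by size factors and -0.08 by library totals, so its direction depends on the scaling. Tenascin was at 0.46 (7870 against 6424 reads). Proteins of the basement membrane, the sheet under epithelia and around muscle and nerve, varied: nidogen (entactin) had 821 reads in the dark library and 1819 in control (-0.98), laminin, gamma 1 had 209 against 432 (-0.88) and collagen, type IV, alpha had 411 against 785 (-0.76). Laminin, beta 1 was at -0.38, laminin, alpha 1/2 at -0.37 and laminin, alpha 3/5 at 0.20 (1366 against 1335). Outside the basement membrane, testican, listed as sparc/osteonectin, cwcv and kazal-like domains proteoglycan (testican), was at -0.64 (490 against 859). Nephronectin, an integrin ligand of basement membranes in mammals, had 122 against 416 reads, 3.03-fold lower (2.47 to 3.74). Chondroitin sulfate proteoglycan 4, a membrane proteoglycan, had 314, 943 and 1493 reads in dark, control and light, 2.67-fold lower in the dark library than in control (2.35 to 3.04).

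Proteases that cut the matrix or shed membrane proteins, with their inhibitors, had 14 members and a median of -0.79. Of the 14, 6 were at least 2-fold lower, beside 10.6% of all members, and none was higher. Matrix metalloproteinase-13 (collagenase 3) had 142 reads in the dark library and 369 in control (2.31-fold lower, 1.90 to 2.82). Disintegrin and metalloproteinase domain-containing protein 12 had 158 against 421 (2.37-fold lower, 1.97 to 2.86), and matrix metalloproteinase-24 (membrane-inserted), the one with the most reads, had 844 against 1445 (1.52-fold lower, 1.40 to 1.66). Matrix metalloproteinase-12 (macrophage elastase) had the highest ratio, 0.72, on 34 against 23 reads. Jagged, a ligand of Notch, had 15 reads in the dark library, 89 in control and 173 in the light library, 5.27-fold lower (3.03 to 9.82). It is 1 isotig whose hit had an E-value of 3e-10, above the limit of 1e-10, so the name is uncertain. The other Notch ligand, delta, had 303 against 459 reads (-0.43). In the list of Notch, Wnt, BMP and TGF-beta signalling, 4 of 13 lay at least 2-fold lower, beside 10.6% of all members. On the other side, 2 lay at least 2-fold higher, beside 3.34%, namely Notch and bone morphogenetic protein 2/4.

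The lowest ratio of all belonged to the orthology named epidermal growth factor. It had 107 reads in the dark library, 976 in control and 972 in the light library, 8.11-fold lower (6.64 to 9.99). It is 1 isotig of 225 bases, isotig29479, whose hit had an E-value of 8e-07, so the name is uncertain. Apolipoprotein B, the lipid carrier protein of body fluids, had 1251, 5739 and 7552 reads in dark, control and light, 4.08-fold lower in the dark library than in control (3.84 to 4.34). Both of its isotigs showed it: isotig13070, of 6323 bases, had 1141 against 5279 reads and isotig14922 had 110 against 460. A secreted adhesive protein of blood in vertebrates, von Willebrand factor, had 1942, 5378 and 4391 reads in that order, a log2 ratio of -1.30 in the dark library; it was singled out here after its value was seen.

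**Figure D5:**
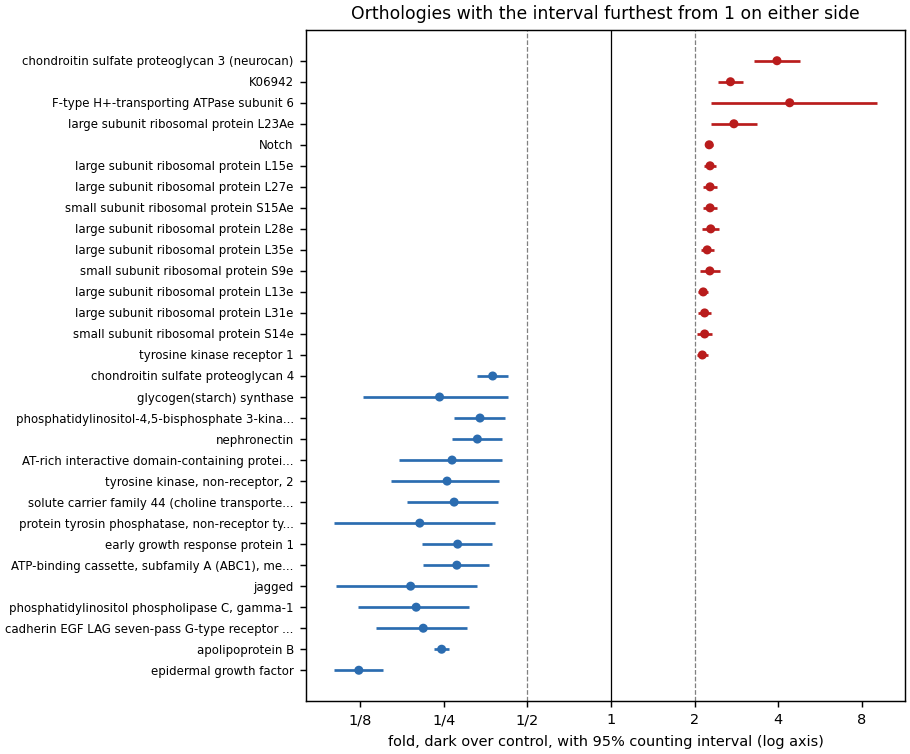
Fold of dark over control (horizontal log axis) with its 95% counting interval for the 15 orthologies whose interval lay furthest above 1 (red) and the 15 whose interval lay furthest below 1 (blue). Epidermal growth factor is lowest, 8.11-fold lower in the dark library; 10 of the 15 red points are ribosomal proteins.

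Enzymes that make and burn fatty acids had a median of -0.24 over 21 members, close to that of all members. Of the 21, 5 were at least 2-fold lower, beside 10.6% of all members, and none was higher. The 5 included the entry enzymes of both pathways. Acetyl-CoA carboxylase / biotin carboxylase, the first step of synthesis, had 11 reads in the dark library and 39 in control (3.15-fold lower, 1.58 to 6.82), and fatty acid synthase, animal type had 79 against 183 (-1.04). Carnitine O-palmitoyltransferase 1, which admits fatty acids to mitochondria for burning, had 61, 171 and 272 reads in dark, control and light (2.49-fold lower, 1.85 to 3.40). The highest ratio on this list was that of 3,2-trans-enoyl-CoA isomerase, mitochondrial, an oxidation enzyme, at 0.46 (102 against 83 reads). Glycogen(starch) synthase, which stores glucose, had 15, 70 and 47 reads (4.15-fold lower, 2.35 to 7.80).

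Membrane transport was low on average with wide scatter. The 46 solute carriers had a median of -0.39. Of these, 13 were at least 2-fold lower, beside 10.6% of all members, and 1 was higher, beside 3.34%. Solute carrier family 44 (choline transporter-like protein) had 37 reads in the dark library and 153 in control, 3.68-fold lower (2.55 to 5.42), whereas the mitochondrial adenine nucleotide carrier of solute carrier family 25, which exchanges ATP for ADP, had 3259 against 2834 and a log2 ratio of 0.37. Of 11 ABC transporters, ATP-binding cassette, subfamily A (ABC1), member 3 was the one past 2-fold, with 69 against 279 reads (3.59-fold lower, 2.75 to 4.75). Among 22 lysosomal orthologies, with a median of -0.46, 2 were at least 2-fold lower. Both counts are close to the 10.6% of all members. Saposin had 117 against 330 reads (2.51-fold lower, 2.02 to 3.12). Lysosomal-associated membrane protein 1/2 had 235, 659 and 1295 in dark, control and light (2.49-fold lower than control, 2.14 to 2.91). Reads of lysosomal-associated membrane protein 1/2 differed between all 3 libraries, and 0% of them came from hits with an E-value of at most 1e-10, so that name is uncertain.

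The 12 SNARE and synaptic orthologies had a median of -0.48, with 9 below the median of all members and 1 at least 2-fold lower. The 11 ion channels and neurotransmitter receptors had a median of -0.39, with 8 below that of all members and 2 at least 2-fold lower. These called counts are too few to set apart from the 10.6% of all members. The summed neuronal markers given above were lower in the dark library. Syntaxin 1A, a vesicle fusion protein of nerve endings, had 40 reads in the dark library, 147 in control and 108 in the light library, 3.27-fold lower (2.29 to 4.76). Voltage-dependent calcium channel alpha-2/delta-4 had 146 against 407 (2.48-fold lower, 2.05 to 3.01), but its 1 hit had an E-value of 5e-08, so the name is uncertain. It gave 82.0 RPKM of the neuronal sum in the dark library and 247 in control. Synaptotagmin-1, the calcium sensor of vesicle release, had 129 against 236 (1.63-fold lower, 1.31 to 2.03). The part of nerve content in these values was not tested.

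Ratios of motor proteins spread widely, with a median of -0.30 over 19 kinesins, dyneins and dynactins, 1 at least 2-fold higher and 2 lower. The 2 lower of 19 are close to the 10.6% of all members. At the high end, dynein light chain roadblock-type had 34 reads in the dark library and 16 in control (2.39-fold, 1.28 to 4.64) and dynein light chain LC8-type had 1024 against 719 (1.60-fold, 1.46 to 1.76). At the low end, dynein heavy chain, axonemal, which moves cilia, had 64 against 155 (2.15-fold lower, 1.60 to 2.93) and dynein light intermediate chain 1, cytosolic had 33 against 100 (2.69-fold lower, 1.80 to 4.12). All 8 myosins had ratios below 0 by size factors, from myosin X at -0.09 to myosin VI at -1.57 (20 against 68 reads). Scaled over orthology sums, myosin X and myosin V turn to the other side of 0. Titin (3080 against 3009 reads, 0.20) and actinin alpha (2521 against 2559, 0.15), of the contractile apparatus, lay above the median of all members.

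Of 10 phototransduction and retinoid orthologies with a read in any library, 4 passed the read minimum. Of 10 clock, cryptochrome and photolyase ones, 6 did. No orthology named opsin, cryptochrome or photolyase was among the members. Beta-arrestin, which stops signalling by opsins and other receptors, had 529 reads in the dark library, 649 in control and 561 in the light library (-0.12), and the 3 retinol dehydrogenases, which handle the vitamin A of visual pigments, lay between 0.00 and -0.47. None of these 4 was past 2-fold. The 6 clock-related orthologies had a median log2 ratio of -0.49, with 5 below the median of all members. The 1 past 2-fold was casein kinase 1, gamma, with 96, 267 and 284 reads in dark, control and light (2.47-fold lower than control, 1.95 to 3.16). It is a kinase of many pathways. Nuclear receptor subfamily 1 group D member 1, a clock repressor in mammals, had 94 against 194 reads (-0.87), and timeless had 48 against 62 (-0.20).

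Early growth response protein 1, an immediate-early transcription factor that responds within minutes to stimuli in vertebrates, had 62 reads in the dark library, 249 in control and 92 in the light library, 3.57-fold lower in the dark library than in control (2.69 to 4.79). Here the light library lay near the dark one and control stood alone. Fos-like antigen, invertebrate, another early gene, had 101, 203 and 190 reads in that order (-0.83), and transcription factor AP-1, named for the Jun protein that pairs with Fos, had 44, 26 and 29 (0.92). The 9 early and stress transcription factors had a median of -0.20 with 1 past 2-fold. The retinoic acid receptor beta had 107 against 264 reads (-1.13), chosen for mention after its value was seen.

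Several of the most abundant orthologies have roles in defence or in the cytoskeleton. Melanoma-associated antigen p97, or melanotransferrin, an iron-binding protein, had the most reads of any member. It had 30908 in the dark library, 61488 in control and 73420 in the light library, 1.77-fold lower in the dark library than in control (1.74 to 1.79), and passed the 2-fold limit when scaled to library totals (log2 ratio -1.11). Mannose receptor, C type, a lectin that binds sugars on microbes, had 18928 against 15385 reads (1.38-fold, 1.35 to 1.41). Ficolin, a fibrinogen-like lectin, had 12001 against 11072 (1.22-fold, 1.19 to 1.25) and complement component 4 had 8259 against 7046 (1.32-fold, 1.28 to 1.36). Complement component 3, the central complement protein, went the other way with 906 against 1811 reads (-0.83), as did complement factor H, its regulator in vertebrates (137 against 322, 2.09-fold lower, 1.71 to 2.57). Under the name complement factor H, 5.23% of the reads came from hits with an E-value of at most 1e-10, so it is uncertain. Cofilin, which cuts actin filaments, had 9906 against 7813 (1.43-fold, 1.38 to 1.47).

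Sums of many isotigs can hide isotigs that differ. An isotig was counted as higher or lower if it was at least 2-fold apart and its counting interval excluded equality. Among 898 members with at least 2 isotigs of 20 or more reads, 29 held both a higher and a lower isotig. Ficolin had 18 higher and 3 lower of 78 isotigs with 20 or more reads, and tenascin had 5 and 1 of 18. Mannose receptor, C type had 4 and 1 of 21, Notch had 2 and 4 of 20, and complement component 4 had 1 and 1 of 13. In ficolin, isotig24848 had 375 reads in the dark library, 54 in control and 130 in the light library, and isotig23973 had 88, 216 and 105. In tenascin, isotig19241 had 1186 reads in the dark library and 398 in control, and isotig27274 had 25 against 91. No label or header says how reads matching several near-identical isotigs were treated, so isotig values in these families are uncertain.

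The 36 heat shock proteins and chaperones had a median of -0.07 with 1 higher and 3 lower, and the abundant heat shock protein 90kDa beta had 3353 reads in the dark library and 3593 in control (log2 ratio 0.07). The 12 antioxidant enzymes had a median of 0.22, which falls below 0 under some scalings, and none was past 2-fold; they ran from thioredoxin 1 at 0.99 (174 against 98 reads) to thioredoxin reductase (NADPH), its partner enzyme, at -0.86 (179 against 365). The 48 splicing orthologies had a median of 0.04 with 1 lower, the 21 cell cycle ones -0.25 with none past 2-fold, the 23 of DNA replication and repair -0.36 with 2 lower, and the 32 of chromatin -0.31 with 4 lower. Of 53 ubiquitin ligases and cullins, 5 were lower and none higher (median -0.38), and of 14 ubiquitin-specific proteases 3 were lower (median -0.53). Of all members 10.6% were at least 2-fold lower. The counts of chaperones, DNA replication and repair, chromatin, and ubiquitin ligases lie near that share, and the 3 proteases are too few to set apart. Ubiquitin carboxyl-terminal hydrolase 7 had 36 against 122 reads, 3.01-fold lower (2.06 to 4.50).

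Precision followed depth. Members had a median of 185 reads over both libraries. The 5 taken just above the 50-read limit had 16 to 22 reads in the dark library and 28 to 34 in control, with log2 ratios from -0.90 to -0.17, and 5 just below it, at 49 reads, had ratios from -1.13 to 0.57. Across members, the ratio did not follow the length of the isotig with most reads (Spearman's correlation 0.0006 over 2185 orthologies, as a description). But of the 437 orthologies with the shortest such isotig, of 220 to 801 bases, 10.1% were at least 2-fold higher, against 1.37% to 2.29% in the other 4 groups of that size. Higher ribosomal proteins such as L13e (742 bases) and L15e (784 bases) fall in that shortest group. The shares by length were not computed without ribosomal proteins. The ratio was weakly higher at higher read numbers (Spearman's correlation 0.18), less so without the ribosomal proteins (0.10 over 2110).

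Isotigs with an orthology and those without one differed in their median ratio. Among isotigs with at least 50 reads over the dark and control libraries, the 3083 with an orthology had a median log2 ratio of -0.25, with 151 (4.9%) at least 2-fold higher in the dark library and 409 (13.3%) lower. The 4279 without an orthology had a median of 0.26, with 360 (8.41%) higher and 282 (6.59%) lower. Among isotigs of at least 1000 bases the medians were -0.20 over 1942 with an orthology and 0.23 over 1675 without. The median of -0.23 over the orthologies describes the members alone, whose isotigs took 46.2% of all reads in the dark library, 50.8% in control and 52.6% in the light library.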

How the data were processed

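Messenger RNA was enriched on oligo(dT), fragmented and copied from random hexamers, per the labels' protocols, with no strand marking and no molecular identifiers recorded. CASAVA 1.5 is named in the submitters' processing notes; for assembler, aligner and read filters these sources name nothing. Per the file headers, the deposited tables give counts of unique reads per isotig, isotig length in bases (another measure), the percent of each isotig covered, and RPKM. Per the file headers these RPKM values, made by the authors, are scaled to length and library total. Isotigs missing from a table were taken as 0 reads.

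Reads were summed per first KEGG Orthology identifier. Ratios used median-of-ratios size factors (dark over control 0.889, against 1.08 for the totals) and a pseudocount of 0.5 reads, which slightly understates changes of low members. Counting intervals are exact conditional binomial (Clopper-Pearson) at 95%. They cover counting error only, not the spread between animals or libraries. Reads without molecular identifiers are not independent molecules, so the intervals may be too narrow even for counting error. Named orthologies were the 15 highest and 15 lowest by the interval bound nearest equality, up to 3 past 2-fold per list and direction, the 2 with most reads per list, the 10 with most reads of all, and 5 split ones. Others given with values illustrate a list's range, or were picked with their values known. The 50 lists, their name patterns and the members were chosen with earlier results of these data known. A further list is not reported here. The tables hold no pathway column, so Gene Ontology terms of at least 25 members were used in its place, chosen after the tables were seen. Python 3.11.15, numpy 2.4.6, pandas 2.3.3 and scipy 1.17.1 were used, and the steps were tested on simulated data.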

Additional observations from a re-analysis of the deposited data

Results flagged for a closer look

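Abundant isotigs without any orthology lay outside the comparison of orthologies. Of the 164 of them with at least 1000 reads over both libraries, 14 had a counting interval wholly above 2-fold, and the 3 with the highest ratios are given as values. Isotig06770 (1210 bases) had 2069 reads in the dark library, 714 in control and 730 in the light library, 3.26-fold higher in the dark library than in control (2.99 to 3.55). Isotig06771 (565 bases) had 1112, 387 and 460 reads in the same order (3.23-fold, 2.88 to 3.64). Isotig26630 (449 bases) had 3511, 1290 and 1313 (3.06-fold, 2.87 to 3.27). They are given because the dark library stood above control in data that carry no name, and the sequences of these isotigs were not analysed here.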

How the results depend on the processing

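No paired analysis was possible because each condition has 1 library. Counts are given as higher and lower in the dark library (73 and 232 as reported), then the median of all members (-0.23). Library totals gave 5, 491 and -0.51, totals without the 20 most abundant isotigs 12, 402 and -0.42, and size factors over orthology sums 170, 115 and 0.017. The share of higher among called orthologies was 23.9% as reported, 1.01%, 2.90% and 59.6% under these 3 scalings. TMM factors gave 82 and 210. A minimum of 20 reads gave 96 and 359, a minimum of 200 gave 47 and 78, and no minimum gave 191 and 541. A limit of 1.5-fold gave 255 and 634, and of 4-fold 1 and 9. Requiring an E-value of at most 1e-10 turned round Notch (-0.28), chondroitin sulfate proteoglycan 3 (neurocan) (-0.63) and K06942 (-0.27). Of the 107 named orthologies past 2-fold, 96 of the 99 with a value kept their direction under that requirement. All kept it under each other setting tried, but for the scalings and the larger pseudocount that outcome was fixed in advance. By library totals 76 were past 2-fold, and with a pseudocount of 5 reads 93 were. Orthologies of low read number have wide counting intervals, and no replicate gives the spread between animals.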

Other observations

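Gene Ontology terms, which the tables attach to 1778 of the members, gave a second grouping from the same reads. Of 101 terms with at least 25 members, 65 had a median below that of all members. Protein kinase activity had a median log2 ratio of -0.78 over 55 orthologies, 16 of them at least 2-fold lower in the dark library and 1 higher. Hemostasis, the arrest of bleeding, had -0.62 over 27, with 8 lower and none higher, cell surface receptor signaling pathway had -0.58 over 30, with 9 lower, and cytoskeleton had -0.54 over 40, with 6 lower and 1 higher. At the other end stood large ribosomal subunit at 0.99 over 25, with 12 higher, structural molecule activity at 0.96 over 74, with 28 higher and 1 lower, and cotranslational protein targeting to membrane at 0.91 over 34, with 11 higher. The broad term translation, at 0.51 over 68, held 13 higher and 6 lower. The 6 lower in cytoskeleton and the 6 lower in translation are not far from the background share of 10.6%. The 1 higher in cytoskeleton is near the background share of 3.34%.

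Of other orthologies lower in the dark library, 5 are given here, picked after their values were seen. AT-rich interactive domain-containing protein 1, a subunit of a chromatin remodelling complex, had 29 reads in the dark library and 122 in control (3.74-fold lower, counting interval 2.48 to 5.82). The adenomatosis polyposis coli protein, which restrains Wnt signalling in vertebrates, had 8 against 43 (log2 ratio -2.19). FKBP12-rapamycin complex-associated protein, the kinase mTOR, which its name in the tables kept off the mTOR and PI3-kinase list, had 19 against 62 (-1.51). Nuclear receptor co-repressor 1 had 31 against 109 (-1.63), and microtubule-associated protein 1 had 498, 1370 and 1537 reads in dark, control and light (-1.29).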
